A study of Homo sapiens with 39 samples.

Results

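The 9 genes described here are the metallothionein copies MT2A, MT1X, MT1G, MT1H, MT1E, MT1F, MT1M, MT1HL1 and MT1B, chosen by name from the 57773 rows of a table of raw counts per gene. RNA was sequenced from JJN3, an established human multiple myeloma (plasma cell) line, in 39 libraries that form 13 groups of 3. Cells received GSK-J4, an inhibitor of the KDM6 family of histone H3K27 demethylases, or ZnSO4, a zinc salt, for 1, 3, 6 or 24 h. Matched cells received DMSO for the same times, and the last group, T0, was taken at the start. The same DMSO groups were the control for both compounds. The labels give no genetic change, all groups come from 1 line, and no dose is stated in the sources at hand. Nothing in the labels says that the 3 libraries of a group came from separate cultures, so p-values measure only how far these libraries differ, and that may be technical.

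Metallothioneins are small cysteine-rich proteins that bind zinc and copper ions in the cytosol and the nucleus. Their genes are classic targets of the zinc-sensing transcription factor MTF1, which binds short metal response elements in their promoters when free zinc rises. MT2A and most functional MT1 copies lie side by side on chromosome 16, with the MT1G gene on the opposite strand, and MT1HL1 is an intronless copy on chromosome 1. The copies encode closely similar proteins, and the brain and squamous epithelial forms MT3 and MT4 belong to the same family.

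The 250 bases before the start of the gene were at hand for 4 of the 9 copies (RefSeq, GRCh38.p14, plus strand) and are shown because the metal response element is the sequence through which zinc is known to act on these genes. They lie at chr16:56608334-56608583 for MT2A, chr16:56682220-56682469 for MT1X, chr16:56669564-56669813 for MT1H and chr16:56651636-56651885 for MT1B. Capitals mark every match to the core of the element, TGCACNC or TGCGCNC, on either strand.
MT2A: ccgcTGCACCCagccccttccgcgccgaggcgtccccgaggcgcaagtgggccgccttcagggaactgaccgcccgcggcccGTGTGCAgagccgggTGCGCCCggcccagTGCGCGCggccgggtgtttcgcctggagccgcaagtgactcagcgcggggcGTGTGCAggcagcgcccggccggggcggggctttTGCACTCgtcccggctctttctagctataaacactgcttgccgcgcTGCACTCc
MT1X: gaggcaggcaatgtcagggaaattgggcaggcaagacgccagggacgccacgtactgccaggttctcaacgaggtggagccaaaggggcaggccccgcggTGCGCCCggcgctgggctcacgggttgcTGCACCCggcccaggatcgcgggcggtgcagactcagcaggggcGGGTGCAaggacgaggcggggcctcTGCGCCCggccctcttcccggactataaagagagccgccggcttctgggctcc
MT1H: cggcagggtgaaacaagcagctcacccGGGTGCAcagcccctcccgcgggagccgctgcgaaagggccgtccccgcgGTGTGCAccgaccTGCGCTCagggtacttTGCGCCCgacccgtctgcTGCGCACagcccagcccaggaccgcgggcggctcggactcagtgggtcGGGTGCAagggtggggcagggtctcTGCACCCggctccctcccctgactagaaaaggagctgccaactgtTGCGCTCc
MT1B: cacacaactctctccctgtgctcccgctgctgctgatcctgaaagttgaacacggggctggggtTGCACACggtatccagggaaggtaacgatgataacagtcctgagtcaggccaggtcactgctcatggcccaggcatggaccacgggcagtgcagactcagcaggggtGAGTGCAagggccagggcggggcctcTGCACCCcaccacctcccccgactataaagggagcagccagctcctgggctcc
The MT1H window held 8 matches, the MT2A window 7, the MT1X window 4 and the MT1B window 3, with none of them overlapping another. In MT2A and MT1H the nearest match began 8 bases before the start of the gene, and in MT1X and MT1B 53 bases before it. Of 35116 RefSeq promoter windows of the same length, 24.8% held at least 1 match, 1.05% at least 3, 0.208% at least 4 and 0.0228% at least 7. The letters TATAAA, searched on the gene's own strand, were present in the windows of MT2A, MT1X and MT1B and in 6.8% of all windows. The window of SLC30A1, the zinc exporter described at the end, held 1 match. A match describes the letters of a window and is not a measured binding site. MT1G, MT1E, MT1F, MT1M and MT1HL1 were not among the promoters used here.

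Library totals ranged from 4347745 to 10695671 counts (median 6010529). Summed levels of 9 plasma cell markers were 10800 to 14400 CPM (counts scaled to library size by TMM factors), against 0.495 to 2.15 CPM for 4 T cell markers, 3.75 to 9.49 CPM for 5 B cell markers and 0.328 to 2.33 CPM for 5 myeloid markers. Summed levels were 40 to 80.5 CPM for 5 epithelial markers and 6.57 to 70.6 CPM for 5 fibroblast markers, and the part of these lists in the results was not tested. All 9 copies passed the filter on low counts among 14460 genes tested. MT1E, MT1F, MT1H, MT1M, MT1HL1 and MT1B passed it only through libraries with a compound, since the T0 and DMSO libraries alone would have kept MT1G, MT1X and MT2A, so the counts of copies called below describe the set and are not evidence by number. MT1B passed only through ZnSO4 libraries, with 6 libraries at or over the cutoff of 1.66 CPM. Its highest level with GSK-J4 was 0.861 CPM. Copies also share sequence. In GENCODE 29 transcripts, every stretch of 100 bases from MT2A, MT1G, MT1E, MT1F and MT1M occurred in no other gene, while 96.6% did so for MT1H and 95.4% for MT1HL1, which share the rest with each other. At 50 bases the share was 85.7% for MT1G, 79.6% for MT1H, 78.2% for MT1B, 77.5% for MT1HL1 and 54.9% for MT1X, and 92.9% to 96.4% for the others. MT1X shared stretches of this length with MT1G, the pseudogene MT1XP1, MT1A and MT2A as well as with an overlapping gene. For MT1X 80.9% and for MT1B 92.2% of the 100-base stretches occurred in no other gene, and the rest lie in an overlapping gene on the same strand that the table lists at 0 in all 39 libraries. No source used here states the read length, the counting tool or its treatment of shared reads, so the split between MT1H and MT1HL1 is uncertain, and with short reads that between MT1X, MT1G and other copies would be too, ratios between copies included.

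Without a compound the family was close to silent, and MT1X was the copy with the most counts. At T0 the libraries held 70, 36 and 40 counts of MT1X, 20, 6 and 10 of MT2A, and 17, 2 and 2 of MT1G. MT1H had 3, 1 and 3 counts and MT1E and MT1F 1 count each, while MT1M, MT1HL1 and MT1B had none. MT1B had no count in any of the 15 T0 and DMSO libraries, which allows a level of up to 0.176 CPM in the DMSO 3 h group, the shallowest of them. Summed over the 9 copies the level was 22.8 ± 20.2, 11.2 ± 1.47, 12.7 ± 3.30 and 30.3 ± 5.35 CPM in DMSO at 1, 3, 6 and 24 h, and 10.7 ± 4.58 CPM at T0 (SD, n = 3 in each group).

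1 DMSO library stood apart at 1 h. MT1G had 168, 1 and 12 counts in the 3 DMSO 1 h libraries, and MT1H had 30, 1 and 1. In the same libraries MT1X had 122, 49 and 53 counts and MT2A 48, 8 and 13, so the first library was high for all 4 copies. SLC30A1, another zinc-induced gene, was not high there, at 59.1, 68.4 and 72.5 CPM. Less marked, MT1G had 40 counts in the third DMSO 6 h library against 10 and 9 in the others. Summed over the 9 copies, the DMSO 1 h libraries were at 45.8, 7.95 and 14.6 CPM. What sets these libraries apart was not tested. Fitted fold changes printed below for MT1G, MT1H, MT2A and MT1F against DMSO at 1 h are given with and without the first library. Values of MT1X, MT1E and MT1M and the summed level are given only with it.

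Against T0, edgeR's quasi-likelihood test called 3 of the 9 copies higher in DMSO at 24 h (adjusted p under 0.05), a share near the 30.5% of all genes called higher and so no result about the copies. DMSO and 24 h in culture cannot be told apart in this comparison. MT1X averaged 18.3 ± 1.59 CPM in DMSO at 24 h and 7.41 ± 2.45 CPM at T0 (SD, n = 3 each), a log2 fold change of 1.31 ± 0.20 (SE, edgeR adjusted p = 3.6e-08). Every DMSO 24 h library was above every T0 library. MT1G averaged 6.39 ± 1.79 CPM in DMSO at 24 h and 0.995 ± 1.16 CPM at T0, and its log2 fold change was 2.56 ± 0.68 (edgeR adjusted p = 0.00086), or 4.23 without the first T0 library. MT2A changed by 1.27 ± 0.41 (edgeR adjusted p = 0.0059), and its call was lost without the second T0 library (adjusted p = 0.09) or the third DMSO 24 h library (adjusted p = 0.11). At 1 h MT1G was called higher in DMSO than at T0 (log2 fold change 2.98 ± 0.64, edgeR adjusted p = 0.048, with 0.0277% of genes higher), but without the first DMSO 1 h library the value was -0.079. At 3 h and 6 h edgeR called 0 copies in DMSO against T0, with 0 at an unadjusted p under 0.05 and 0 by DESeq2 (which gave no adjusted p for 4 of the copies at 3 h and 5 at 6 h), where 0.0968% and 0.0138% of all genes were called.

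With GSK-J4 MT1X, MT2A and MT1G were higher than with DMSO at 1 h, and every copy but MT1B was higher at 3 h. At 1 h edgeR called 3 of the 9 copies higher than in DMSO, against 0.0346% of all genes. At 3 h it called 8, at 6 h 9 and at 24 h 9, against 1.45%, 9.83% and 15.2% of all genes. All copies but MT1G, MT1X and MT2A passed the filter only through libraries with a compound. The filter thus favoured their calls, and these counts are not evidence by number. DESeq2 called 2, 5, 8 and 8 at 1, 3, 6 and 24 h, with no adjusted p for 4, 4, 1 and 1 of the copies. The median log2 fold of the copies with a fold, bounds and ratios included, was 6.53, 7.24 and 6.97 at 3, 6 and 24 h, beside fitted medians of 0.0037 to 0.022 over all genes. Summed over the copies, the level was 98.6 ± 3.87, 1905 ± 97.3, 3396 ± 67.0 and 3467 ± 145 CPM at 1, 3, 6 and 24 h (SD, n = 3 each), and at 24 h it made up 0.324% ± 0.0167 of a library in GSK-J4, against 0.00266% ± 0.000447 in DMSO. In bulk RNA, more cells that express a copy and more RNA per cell cannot be told apart.

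**Figure D1:**
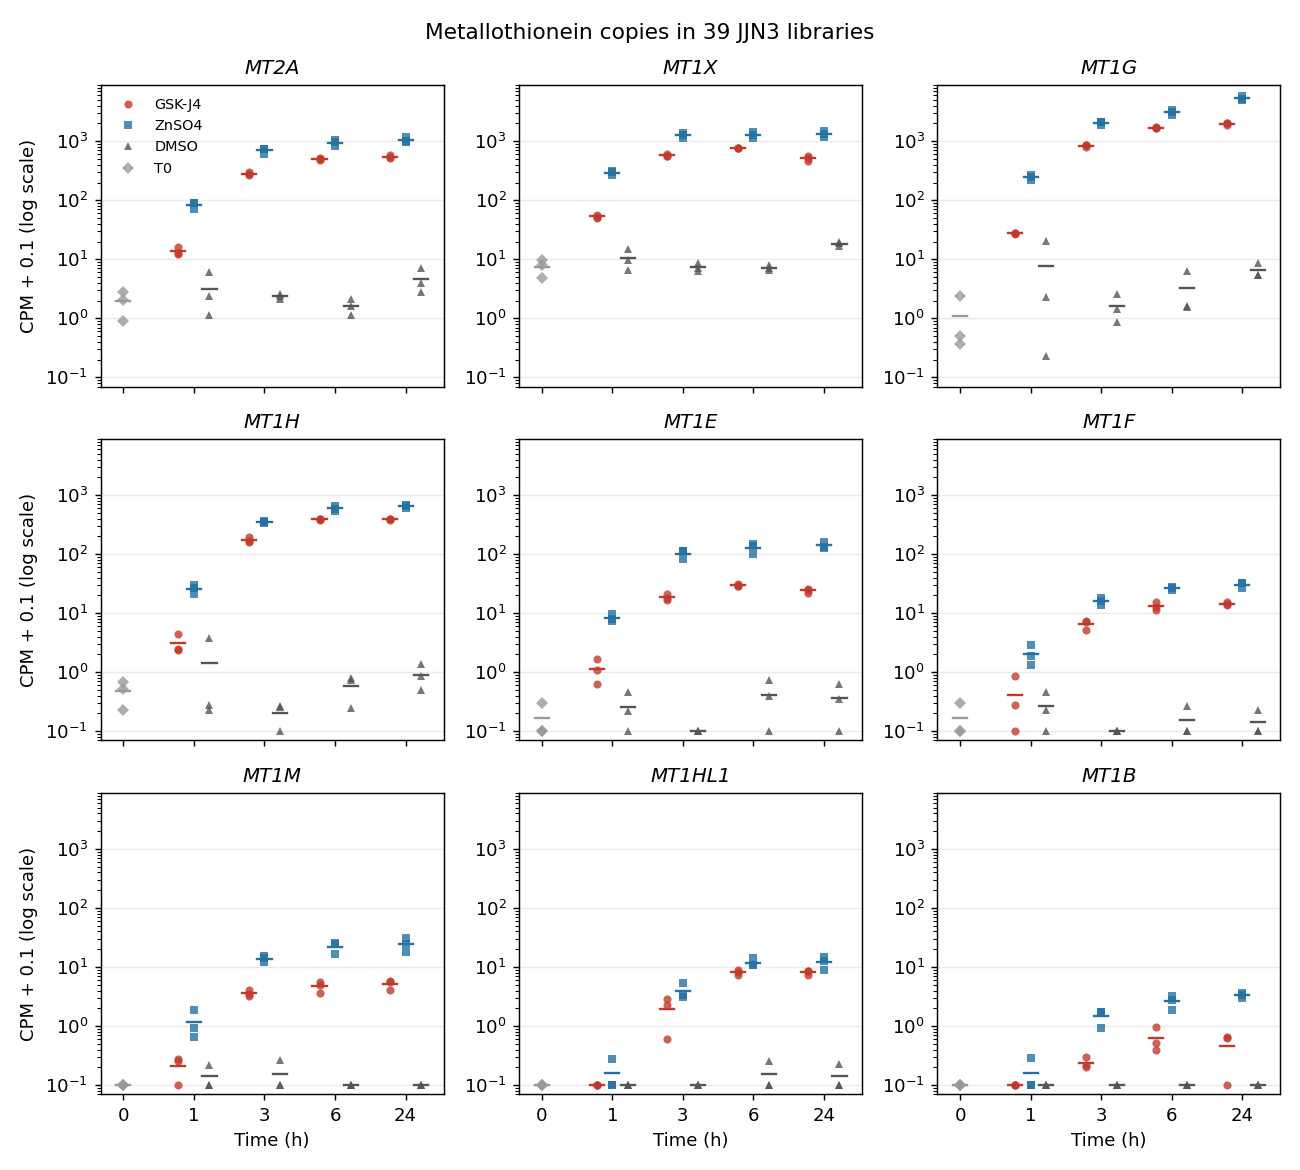
TMM-scaled CPM plus 0.1 (log scale) of each copy in each library against time in h (times evenly spaced, not to scale), for GSK-J4 (circles), ZnSO4 (squares), DMSO (triangles) and T0 (diamonds), with a short line at each group's mean. From 3 h on, the mean of every copy is highest with ZnSO4 and lowest with DMSO, with GSK-J4 between them, and MT1B is at 1 to 5 counts where it was detected with GSK-J4.

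At 1 h with GSK-J4, MT1X, the copy with the most counts in DMSO, was at 52.7, 57.3 and 49.6 CPM in GSK-J4 and at 14.98, 6.49 and 9.53 CPM in DMSO. The groups did not overlap, with a log2 fold change of 2.34 ± 0.15 (edgeR adjusted p = 5.8e-19). MT2A, the main MT2 isoform, was at 12.6, 12.2 and 16.1 CPM in GSK-J4 and at 5.89, 1.06 and 2.34 CPM in DMSO, again without overlap. Its log2 fold change was 2.07 ± 0.28 (edgeR adjusted p = 1.6e-06), and 3.07 without the first DMSO library. MT1G was at 27.7, 26.7 and 27.7 CPM in GSK-J4 and at 20.6, 0.133 and 2.16 CPM in DMSO. Its log2 fold change of 1.70 ± 0.31 (edgeR adjusted p = 0.0012) became 4.76 without the first DMSO library. The MT1G call did not hold in DESeq2 (adjusted p = 1) or without the second or the third DMSO library (adjusted p = 0.068 and 0.056). MT1H was not called at 1 h (log2 fold change 1.00 ± 0.44, edgeR adjusted p = 1), and without the first DMSO library it was called at 4.15 (adjusted p = 0.00014).

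At 3 h the levels with GSK-J4 were far higher. MT1G was at 849, 881 and 800 CPM in GSK-J4 at 3 h, against 0.768, 2.47 and 1.35 CPM in DMSO, a log2 fold change of 9.09 ± 0.29 (edgeR adjusted p = 6.7e-36, and 9.69 without the second DMSO library). MT1X was at 568, 602 and 559 CPM in GSK-J4 and at 6.30, 6.92 and 8.53 CPM in DMSO, a log2 fold change of 6.34 ± 0.13 (edgeR adjusted p = 9.4e-46). MT2A was at 279, 298 and 267 CPM in GSK-J4 and at 2.30, 2.47 and 2.02 CPM in DMSO, a log2 fold change of 6.93 ± 0.19 (edgeR adjusted p = 8.2e-40). All 3 groups of GSK-J4 libraries lay far above their DMSO libraries, and MT1X had the smallest of these 3 fold changes. MT1H held 1393, 1943 and 1579 counts in GSK-J4 and 1, 1 and 0 in DMSO, a ratio of 1487 with a 95% counting interval of 411 to 12280.

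Copies that were at or near 0 in DMSO appeared at 3 h. MT1E held 148, 213 and 160 counts in GSK-J4 and none in DMSO, at least 105-fold higher when 3 counts over the DMSO group are taken as the limit. MT1F held 60, 71 and 50 counts and MT1HL1 18, 28 and 5 in GSK-J4, both with none in DMSO, at least 36.5-fold and at least 10.3-fold higher. MT1M held 33, 34 and 30 counts in GSK-J4 and 0, 1 and 0 in DMSO, a ratio of 58.7 (95% counting interval 10.3 to 2341). MT1B held 1, 2 and 1 counts in GSK-J4 and none in DMSO and was not called (edgeR adjusted p = 0.44). A difference in MT1B was not detectable at this depth.

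At 6 h and 24 h with GSK-J4 the levels stayed high. MT1G was at 1719, 1649 and 1702 CPM at 6 h and at 1868, 2000 and 2028 CPM at 24 h, against 1.47, 1.55 and 6.33 CPM in DMSO at 6 h and 5.30, 5.43 and 8.45 CPM in DMSO at 24 h. Its log2 fold changes were 9.07 ± 0.25 at 6 h and 8.28 ± 0.22 at 24 h (edgeR adjusted p = 2e-39 and 5.5e-40), with a value at 6 h of 10.1 without the third DMSO library. MT1H reached 391 ± 9.78 CPM at 6 h and 391 ± 9.85 CPM at 24 h, against 0.490 ± 0.298 and 0.812 ± 0.424 CPM in DMSO (SD, n = 3 each). Its log2 fold changes, 9.63 ± 0.20 and 8.91 ± 0.18 (edgeR adjusted p = 7.1e-46 and 3.9e-46), rest on 9 and 17 counts over the DMSO libraries. MT1E was at 21.9, 25.6 and 25.1 CPM in GSK-J4 at 24 h and at 0.543, 0.258 and 0 CPM in DMSO, a log2 fold change of 6.34 ± 0.35 (edgeR adjusted p = 1.8e-22, and 7.22 without the first DMSO library). MT1X had a log2 fold change of 6.74 ± 0.13 at 6 h and 4.81 ± 0.11 at 24 h (edgeR adjusted p = 5e-48 and 7.7e-44). MT1B held 2, 5 and 2 counts in GSK-J4 at 6 h and 3, 3 and 0 at 24 h, with none in DMSO. With 3 counts over the DMSO group as the limit it was 3.24-fold and 2.59-fold higher. Counting error in the few GSK-J4 counts is not covered by these values, so the true folds may be smaller. Both MT1B calls (edgeR adjusted p = 0.01 and 0.018) were lost when single libraries were left out: at 6 h without the second GSK-J4 library (adjusted p = 0.069), and at 24 h without the first or second library of either group (adjusted p = 0.051 to 0.073).

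By edgeR, ZnSO4 raised 7 of the copies at 1 h and all 9 from 3 h on. At 1 h edgeR called 7 of the 9 copies higher than in DMSO, against 0.498% of all genes. At 3, 6 and 24 h it called all 9, against 6.59%, 4.81% and 3.98% of all genes. All copies but MT1G, MT1X and MT2A passed the filter only through libraries with a compound, MT1B only through those with ZnSO4. The filter thus favoured their calls, and these counts are not evidence by number. DESeq2 called 6, 8, 8 and 8 copies at these 4 times and gave no adjusted p for MT1B. The median log2 fold of the copies, bounds and ratios included, was 7.89, 8.66 and 8.05 at 3, 6 and 24 h, beside fitted medians of -0.0018 to 0.0074 over all genes. The summed level was 660 ± 64.9, 4528 ± 347, 6145 ± 660 and 8621 ± 792 CPM at 1, 3, 6 and 24 h (SD, n = 3 each). At 24 h the 9 copies made up 0.768% ± 0.0734 of the counts of a ZnSO4 library. Because these comparisons and those of GSK-J4 share their DMSO libraries, their fold changes are given side by side and not correlated.

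At 1 h MT1X was at 265, 304 and 310 CPM in ZnSO4, against 14.98, 6.49 and 9.53 CPM in DMSO, a log2 fold change of 4.8 ± 0.12 (edgeR adjusted p = 1.7e-40). MT1G was at 221, 246 and 273 CPM in ZnSO4, against 20.6, 0.133 and 2.16 CPM in DMSO (4.88 ± 0.23, edgeR adjusted p = 1.5e-26, and 7.93 without the first DMSO library). MT2A was at 70.1, 89.3 and 90.7 CPM in ZnSO4, against 5.89, 1.06 and 2.34 CPM in DMSO (4.69 ± 0.19, edgeR adjusted p = 2.4e-29, and 5.70 without that library). For MT1X, MT1G and MT2A every ZnSO4 library was above every DMSO library, which describes these copies alone. MT1H held 113, 167 and 286 counts in ZnSO4 and 30, 1 and 1 in DMSO (4.10 ± 0.26, edgeR adjusted p = 6.2e-20, and 7.24 without that library). The rarer MT1E and MT1F were counted too. MT1E held 39, 44 and 101 counts in ZnSO4 and 1, 0 and 2 in DMSO, a ratio of 60.04 (95% counting interval 20.2 to 293.8, edgeR adjusted p = 4.6e-13). MT1F held 15, 7 and 19 counts in ZnSO4 and 3, 1 and 0 in DMSO (3.21 ± 0.60, edgeR adjusted p = 0.00045, and 4.32 without the first DMSO library). The MT1F ratio was 10.03, with a 95% counting interval of 3.63 to 38.6. MT1M held 3, 10 and 9 counts in ZnSO4 and 1, 0 and 0 in DMSO, and its call (edgeR adjusted p = 0.012) was lost in DESeq2 (adjusted p = 0.077) and without the second or the third DMSO library or the second ZnSO4 library (adjusted p = 0.081 to 0.14). MT1HL1 and MT1B had 1 count each over the 3 ZnSO4 1 h libraries and were not called.

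By 3 h with ZnSO4 the rare copies were well counted. MT1E held 493, 1012 and 899 counts in ZnSO4 and none in DMSO, at least 586-fold higher. MT1F held 84, 161 and 127, and MT1M 72, 127 and 125, against none and 1 count over the DMSO libraries, at least 90.7-fold higher for MT1F and a ratio of 237 for MT1M (95% counting interval 42.3 to 9392). MT1B held 5, 15 and 13 counts in ZnSO4 at 3 h, 15, 8 and 19 at 6 h and 14, 15 and 14 at 24 h, and none in DMSO, at least 8.05-fold, 16.3-fold and 23.03-fold higher. At 24 h MT1G was at 4962, 5279 and 5880 CPM in ZnSO4, against 5.30, 5.43 and 8.45 CPM in DMSO, a log2 fold change of 9.73 ± 0.22 (edgeR adjusted p = 7e-44). Every ZnSO4 library at 24 h was above every ZnSO4 library at 6 h. MT2A was at 956, 1013 and 1166 CPM in ZnSO4 at 24 h, against 3.80, 2.71 and 7.04 CPM in DMSO, a log2 fold change of 7.89 ± 0.15 (edgeR adjusted p = 5.1e-49). MT1X was at 1187, 1320 and 1513 CPM in ZnSO4 at 24 h, against 16.6, 18.5 and 19.7 CPM in DMSO, a log2 fold change of 6.20 ± 0.11 (edgeR adjusted p = 4.9e-50). Among MT1X, MT2A, MT1G, MT1H and MT1E, MT1X had the smallest log2 fold change at 24 h in both arms.

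Set directly against each other at the same time, GSK-J4 gave lower mean levels than ZnSO4 for every copy from 3 h on. No dose is known for either arm. At 1, 3, 6 and 24 h edgeR called 6, 9, 8 and 8 of the 9 copies lower with GSK-J4, against 0.526%, 6.12%, 9.88% and 12.5% of all genes. MT1B, among those called at 3, 6 and 24 h, passed the filter only through ZnSO4 libraries, so its calls are favoured by the filter. The median log2 fold change over the 9 copies was -1.30, -0.93 and -1.39 at 3, 6 and 24 h, beside medians between -0.0047 and 0.0069 over all genes. DESeq2 called 6 copies at each time and gave no adjusted p for MT1B.

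**Figure D2:**
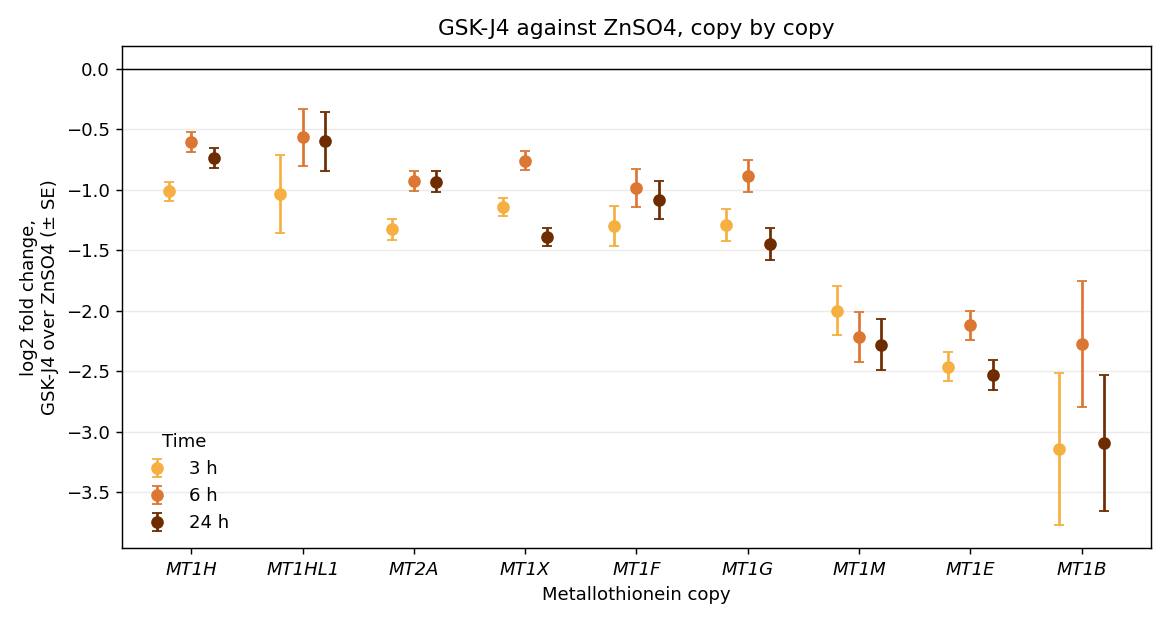
Log2 fold change of GSK-J4 over ZnSO4 with its SE for each copy at 3, 6 and 24 h. MT1H lies between -1.01 and -0.61, while MT1E lies between -2.53 and -2.12 and MT1B between -3.14 and -2.27. MT1B passed the filter on low counts only through ZnSO4 libraries.

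Among the widest gaps was that of MT1E. It was at 17.9, 21.02 and 16.4 CPM in GSK-J4 and at 81.3, 111 and 111 CPM in ZnSO4 at 3 h, and at 21.9, 25.6 and 25.1 CPM in GSK-J4 and 128, 133 and 159 CPM in ZnSO4 at 24 h. The groups were far apart at both times. Its log2 fold changes were -2.46 ± 0.12, -2.12 ± 0.12 and -2.53 ± 0.12 at 3, 6 and 24 h (edgeR adjusted p = 7.2e-26, 8e-23 and 5.6e-25). MT1M gave -1.999 ± 0.20, -2.22 ± 0.21 and -2.28 ± 0.21 at the same times (edgeR adjusted p = 2.2e-11, 6.5e-13 and 3.7e-13). MT1B gave -3.14 ± 0.63, -2.27 ± 0.52 and -3.09 ± 0.56 (edgeR adjusted p = 0.00029, 0.00096 and 2.5e-05), on 4, 9 and 6 counts over the GSK-J4 groups and 33, 42 and 43 over the ZnSO4 groups. MT1B was tested only because of its ZnSO4 counts, which favours these calls.

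MT1H showed the narrowest gap among the well-counted copies. It was at 168, 192 and 162 CPM in GSK-J4 and at 334, 367 and 354 CPM in ZnSO4 at 3 h, and at 396, 380 and 397 CPM in GSK-J4 and 617, 655 and 684 CPM in ZnSO4 at 24 h. Its log2 fold changes were -1.01 ± 0.08, -0.61 ± 0.08 and -0.74 ± 0.08 at 3, 6 and 24 h (edgeR adjusted p = 6.5e-16, 1.1e-08 and 3.3e-11). MT2A gave -1.33 ± 0.09, -0.93 ± 0.09 and -0.93 ± 0.09, MT1X -1.14 ± 0.08, -0.76 ± 0.08 and -1.39 ± 0.08, and MT1F -1.30 ± 0.17, -0.99 ± 0.16 and -1.09 ± 0.16, all called. MT1G gave -1.29 ± 0.13, -0.89 ± 0.13 and -1.45 ± 0.13 and was called by edgeR (adjusted p = 7.7e-12, 2.5e-07 and 7.4e-14) but not by DESeq2 (adjusted p = 0.26, 0.41 and 0.11). MT1HL1 gave -1.03 ± 0.32, -0.57 ± 0.24 and -0.60 ± 0.24. It was called only at 3 h (edgeR adjusted p = 0.028), and not there without the third GSK-J4 or the first ZnSO4 library (adjusted p = 0.3 and 0.18) or in DESeq2 (adjusted p = 0.06). Whether one copy's gap differs from another's was not tested.

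At 1 h the gaps were wider, with log2 fold changes of -3.18 ± 0.19 for MT1G, -3.09 ± 0.23 for MT1H, -2.99 ± 0.36 for MT1E, -2.63 ± 0.15 for MT2A and -2.46 ± 0.10 for MT1X. MT1F held 1, 5 and 0 counts in GSK-J4 and 15, 7 and 19 in ZnSO4 (-2.45 ± 0.55, edgeR adjusted p = 0.0086). The MT1F call was lost without the first or the third GSK-J4 library or the first ZnSO4 library (adjusted p = 0.065 to 0.18), and without the second GSK-J4 library the value was -4.19.

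Levels within each arm were also compared between times, in tests added after the data were seen. With GSK-J4, 8 copies were higher at 3 h than at 1 h (1.72% of all genes) and 7 were higher at 6 h than at 3 h (7.57% of all genes), MT1M and MT1B not being called. Between 1 h and 3 h MT1H rose by 5.84 ± 0.17 and MT1X by 3.44 ± 0.10 on the log2 scale (edgeR adjusted p = 3.5e-38 and 1.6e-38). Between 6 h and 24 h with GSK-J4 edgeR called 1 of the 9 copies lower, MT1X, and the other 8 were not called. That share does not exceed the 30.5% of all genes called lower and so is no result about the copies. MT1X was at 472, 511 and 552 CPM at 24 h and at 761, 756 and 762 CPM at 6 h, with no overlap and a log2 fold change of -0.57 ± 0.08 (edgeR adjusted p = 3.4e-09, while 30.5% of all genes were lower). MT1E (-0.29 ± 0.15, edgeR adjusted p = 0.088) and MT1G (0.22 ± 0.13, edgeR adjusted p = 0.15) were called in some other fits, as were MT1H and MT2A.

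With ZnSO4, 9 copies were higher at 3 h than at 1 h (8.37% of all genes) and 7 were higher at 6 h than at 3 h (4.59% of all genes, and 3 copies in DESeq2). MT1X was not among them. It was at 1150, 1419 and 1291 CPM at 6 h and at 1148, 1367 and 1300 CPM at 3 h (log2 fold change 0.015 ± 0.08, edgeR adjusted p = 0.94). Between 6 h and 24 h with ZnSO4 MT1G was the copy called, at 4962, 5279 and 5880 CPM at 24 h and 2782, 3425 and 3155 CPM at 6 h. Its log2 fold change was 0.78 ± 0.13 (edgeR adjusted p = 4e-07, with 28.4% of genes higher), and the call did not hold in DESeq2 (adjusted p = 0.39). A count of 1 among 9 copies does not exceed that 28.4% and so is no result about the copies. MT1X was not called over that interval, with a log2 fold change of 0.06 ± 0.08 (edgeR adjusted p = 0.51).

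The effects against DMSO were compared between times as well. Between 3 h and 6 h edgeR called 0 copies as changed in effect, for GSK-J4 (3.67% of all genes called, 1 copy, MT2A, at an unadjusted p under 0.05, and 1 in DESeq2) and for ZnSO4 (2.18%, 0 at an unadjusted p under 0.05 and 0 in DESeq2). Between 6 h and 24 h edgeR called 1 copy, MT1X, with a smaller effect at 24 h in both arms. At an unadjusted p under 0.05 there were 2 copies in each arm, MT1X and MT2A, and DESeq2 called 2 for GSK-J4 and 1 for ZnSO4 (with no adjusted p for 2 and 5 of the copies). The effect on MT1X with GSK-J4 changed by -1.93 ± 0.21 on the log2 scale (edgeR adjusted p = 7.2e-10, with 3.04% of genes lower in effect), and with ZnSO4 by -1.30 ± 0.22 (edgeR adjusted p = 0.00015, with 0.297% lower). The difference in effect for MT2A was -1.37 ± 0.45 with GSK-J4 (edgeR adjusted p = 0.053) and -1.37 ± 0.45 with ZnSO4 (edgeR adjusted p = 0.23), neither called. Both arms share the DMSO libraries, in which MT1X was at 16.6, 18.5 and 19.7 CPM at 24 h and at 6.91, 7.92 and 6.49 CPM at 6 h.

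The make-up of the family differed between times. In the share of all metallothionein counts, which is not corrected for gene length, MT1X made up 53.9%, 30.3%, 22.4% and 14.7% at 1, 3, 6 and 24 h with GSK-J4, with SDs of 0.366 to 2.26 percentage points (n = 3). With ZnSO4 it made up 44.5%, 28.1%, 20.95% and 15.5%, and at T0 71.3% ± 8.24. MT1G made up 27.8%, 44.3%, 49.8% and 56.7% with GSK-J4, and 37.3%, 45.6%, 50.8% and 62.4% with ZnSO4. MT2A made up between 13.8% and 15.8% with GSK-J4 and between 12.1% and 15.6% with ZnSO4.

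**Figure D3:**
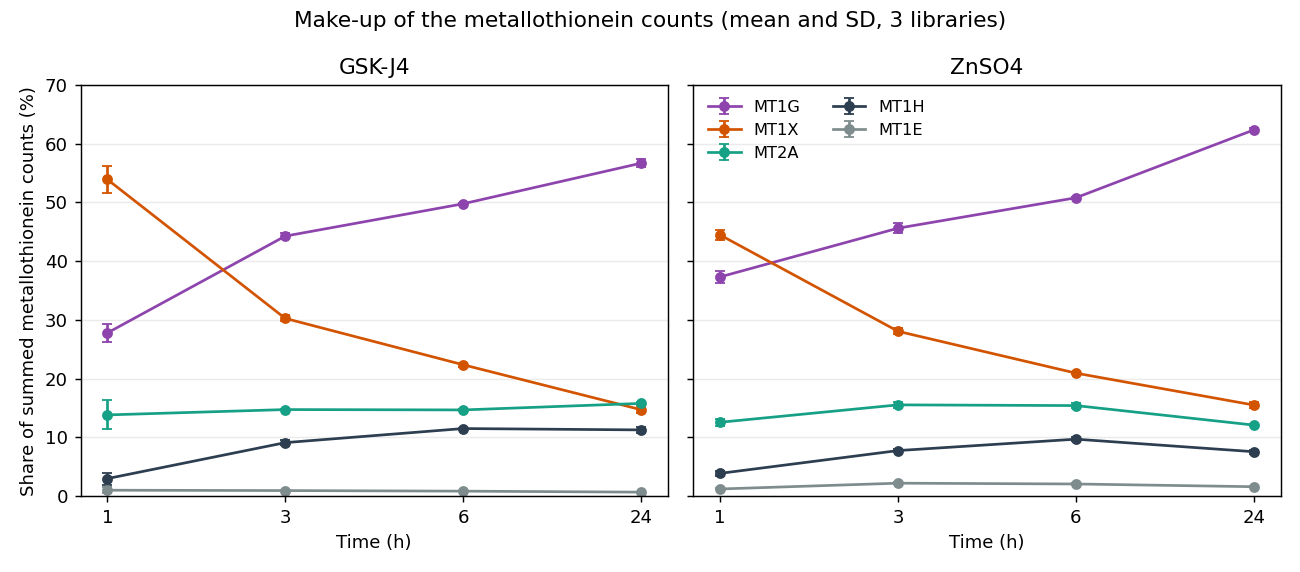
Share of the summed metallothionein counts (%) held by MT1G, MT1X, MT2A, MT1H and MT1E at 1, 3, 6 and 24 h (evenly spaced, not to scale) with GSK-J4 and with ZnSO4, as mean and SD of 3 libraries. At 24 h MT1X is at 14.7% with GSK-J4 and 15.5% with ZnSO4, and MT1G at 56.7% with GSK-J4 and 62.4% with ZnSO4.

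Ratios between copies within a library, which need no scaling between libraries, did not overlap between the arms for some pairs. The pairs were picked and are not all that could be formed. MT1G over MT1X was 0.517, 1.46, 2.23 and 3.85 at 1, 3, 6 and 24 h with GSK-J4 and 0.840, 1.63, 2.43 and 4.02 with ZnSO4. The 24 h libraries overlapped, at 3.67 to 3.96 with GSK-J4 and 3.89 to 4.18 with ZnSO4. MT1E over MT1X was 0.0319, 0.0387 and 0.0473 at 3, 6 and 24 h with GSK-J4 and 0.0791, 0.0996 and 0.105 with ZnSO4, and the lowest ZnSO4 library (0.0708) exceeded the highest GSK-J4 library (0.0501). MT1H over MT1G ran the other way, at 0.206, 0.232 and 0.199 with GSK-J4 and 0.170, 0.191 and 0.122 with ZnSO4. At each of these 3 times the GSK-J4 libraries were all above the ZnSO4 libraries. MT1M over MT1F was 0.543, 0.357 and 0.351 with GSK-J4 and 0.877, 0.836 and 0.829 with ZnSO4, again without overlap at each time. This rests on 17 to 38 counts of MT1M in a GSK-J4 library. MT1E over MT2A did not overlap at these times either. MT1HL1 over MT1H overlapped at all of them, at 0.0182 to 0.0221 with GSK-J4 and 0.016 to 0.0244 with ZnSO4 at 6 h. MT2A over MT1X changed order between the times, at 0.488 and 0.657 with GSK-J4 and 0.554 and 0.737 with ZnSO4 at 3 h and 6 h, but 1.07 with GSK-J4 and 0.781 with ZnSO4 at 24 h. The libraries did not overlap at any of these 3 times.

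**Figure D4:**
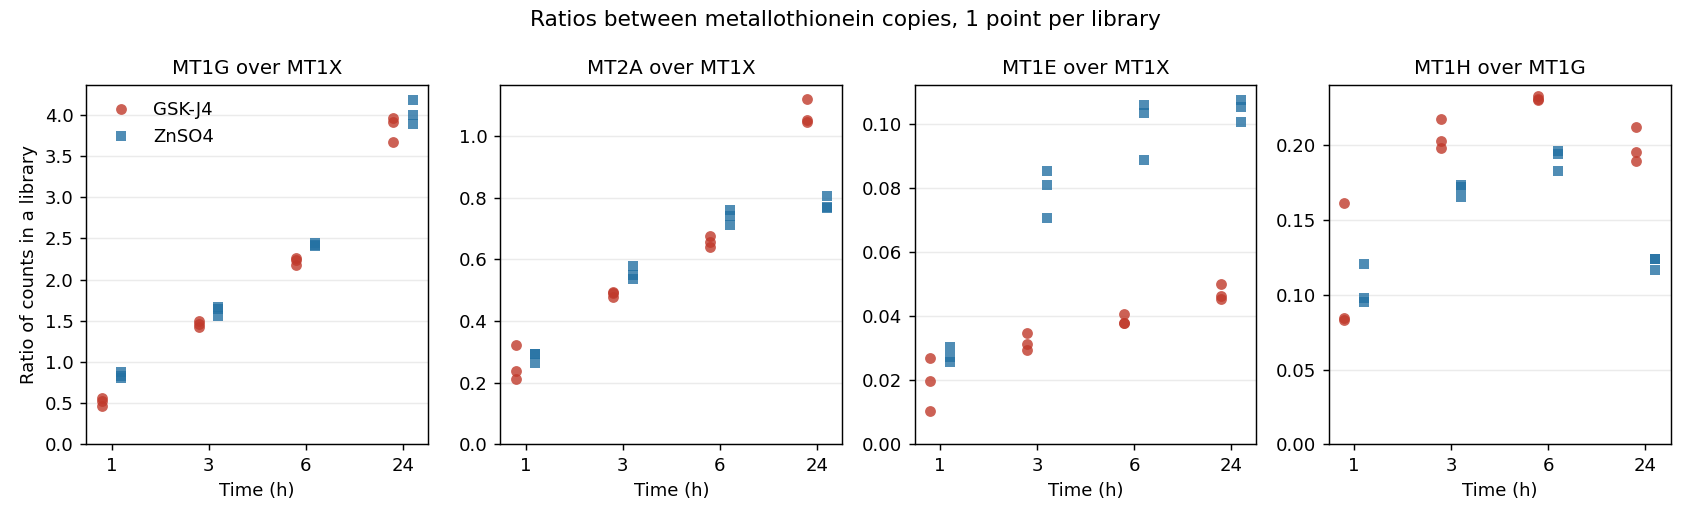
Ratio of the counts of 2 copies in each library at 1, 3, 6 and 24 h (evenly spaced, not to scale) for GSK-J4 (circles) and ZnSO4 (squares). MT1G over MT1X overlaps between the arms at 24 h, MT1E over MT1X is at 0.0294 to 0.0501 with GSK-J4 and 0.0708 to 0.108 with ZnSO4 from 3 h on, and MT2A over MT1X is lower with GSK-J4 at 3 h (0.477 to 0.495 against 0.536 to 0.577 with ZnSO4) and 6 h (0.638 to 0.675 against 0.712 to 0.758) but higher at 24 h (1.05 to 1.12 against 0.767 to 0.806).

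Per kilobase of the principal GENCODE 29 transcript, at 24 h MT1G had the highest level in both arms, with 3129 ± 136 CPM per kb in GSK-J4 and 8557 ± 743 CPM per kb in ZnSO4. MT1X followed with 1136 ± 89.4 in GSK-J4 and 2978 ± 364 CPM per kb in ZnSO4, then MT1H with 985 ± 24.8 and 1642 ± 84.8 CPM per kb and MT2A with 697 ± 33.02 and 1330 ± 138 CPM per kb. MT1E had 34.4 ± 2.81 CPM per kb in GSK-J4 and 199 ± 24.2 CPM per kb in ZnSO4 (SD, n = 3 in each group). MT1B was lowest, with 0.961 ± 0.833 and 8.53 ± 0.786 CPM per kb. In DMSO at 24 h the order began with MT1X, at 40.6 ± 3.52 CPM per kb, ahead of MT1G at 10.2 ± 2.84 CPM per kb. Transcript lengths differ between annotated forms, and with the shortest form of each gene MT2A (943 CPM per kb) came just under MT1H (985 CPM per kb) in GSK-J4 and above it (1799 against 1642 CPM per kb) in ZnSO4 at 24 h. With the longest form MT2A was above MT1H in both arms, at 697 against 561 CPM per kb in GSK-J4 and 1330 against 935 CPM per kb in ZnSO4, so the order of these 2 copies depends on the form chosen.

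Across the 13 groups the order of levels was shared only in part by the main copies. MT1G was highest with ZnSO4 at 24 h (5374 CPM), then at 6 h (3121 CPM) and at 3 h (2064 CPM), and the ZnSO4 3 h libraries overlapped those of GSK-J4 at 24 h (1965 CPM). GSK-J4 at 6 h (1690 CPM) and 3 h (843 CPM), ZnSO4 at 1 h (247 CPM) and GSK-J4 at 1 h (27.4 CPM) followed, none overlapping its neighbours. The DMSO groups, at 1.53 to 7.64 CPM, and T0, at 0.995 CPM, overlapped their neighbours in the order. For MT1X the 3 highest groups, ZnSO4 at 24, 6 and 3 h (1340, 1287 and 1272 CPM), overlapped, and GSK-J4 at 24 h (511 CPM) came below GSK-J4 at 3 h (577 CPM). For MT1H, GSK-J4 at 6 h and 24 h (391 and 391 CPM) came above ZnSO4 at 3 h (351 CPM), without overlap.

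Other rows of the family held 0.326% of all metallothionein counts. Of 12 such symbols 11 were in the table, and MT3, MT4 and MT1CP were at 0 in all 39 libraries. MT1A, a functional copy, had 2, 0 and 0 counts in GSK-J4 and 4, 8 and 7 in ZnSO4 at 3 h, and 1, 0 and 0 counts in GSK-J4 and 4, 5 and 10 in ZnSO4 at 6 h. It had no count in T0 or DMSO. The pseudogene MT1XP1 had 40, 37 and 31 counts in GSK-J4 and 52, 72 and 68 in ZnSO4 at 6 h, against 0, 0 and 1 in DMSO. MT1P1, another pseudogene, had 22, 26 and 15 counts in GSK-J4 and 38, 31 and 51 in ZnSO4 at 6 h, against 1, 0 and 0 in DMSO. MT1XP1 shares 13 of the 75-base stretches of MT1X, and how far reads of the functional copies account for the pseudogene rows was not tested. MT1L had 89 counts in all, MT1JP 89, MT1P3 35, MT1DP 11 and MT2P1 2.

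Beyond the metallothioneins, genes of zinc handling (importers, exporters and MTF1) were listed, and 19 of 25 were tested. With GSK-J4 1, 2, 4 and 8 were called higher and 0, 1, 3 and 3 lower than in DMSO at 1, 3, 6 and 24 h, and with ZnSO4 1, 2, 3 and 2 were called higher and 1, 2, 4 and 3 lower. Of all genes 0.0346%, 1.45%, 9.83% and 15.2% were higher and 0.0692%, 0.927%, 10.5% and 16.8% lower with GSK-J4 at these times. With ZnSO4 0.498%, 6.59%, 4.81% and 3.98% were higher and 0.18%, 4.16%, 4.51% and 5.58% lower. Medians over the list were between -0.05 and 0.21 on the log2 scale, beside medians of -0.0018 to 0.022 over all genes. MTF1 itself, the zinc-sensing factor, was not called in any of the 8 comparisons, with log2 fold changes between -0.17 and 0.20. SLC30A1, the plasma membrane zinc exporter and a known MTF1 target, was called higher in all 8. Its log2 fold change was 1.38 ± 0.08, 2.33 ± 0.07, 1.91 ± 0.08 and 0.81 ± 0.07 at 1, 3, 6 and 24 h with GSK-J4, and 2.44 ± 0.07, 3.03 ± 0.07, 2.13 ± 0.08 and 2.39 ± 0.07 with ZnSO4 (largest edgeR adjusted p = 2.3e-14).

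SLC30A2, a vesicular zinc exporter, had 6, 8 and 2 counts in GSK-J4 and 17, 21 and 26 in ZnSO4 at 3 h, and none in DMSO. SLC39A10, a zinc importer, fell with ZnSO4 at every time, with log2 fold changes of -0.54 ± 0.11, -1.14 ± 0.12, -1.28 ± 0.13 and -1.04 ± 0.19 at 1, 3, 6 and 24 h (largest edgeR adjusted p = 0.0013). With GSK-J4 it was lower than in DMSO at 3 h and 6 h (-0.83 ± 0.11 and -0.46 ± 0.11) and higher than in DMSO at 24 h (0.41 ± 0.14, edgeR adjusted p = 0.02). Its mean level was lower at 24 h than at 6 h in both groups. With GSK-J4 it was at 19.99 CPM at 6 h and 12.9 CPM at 24 h, and in DMSO at 27.5 and 9.72 CPM. SLC39A9, an importer of the Golgi, was higher with GSK-J4 at 24 h (0.53 ± 0.07, edgeR adjusted p = 1.9e-08). Of 12 copper handling genes 10 were tested. With GSK-J4 0, 0, 1 and 1 were called higher and 0, 0, 1 and 4 lower at 1, 3, 6 and 24 h, and with ZnSO4 the 1 call was SCO1, a cytochrome c oxidase assembly factor, lower at 3 h. Of all genes 15.2% were higher and 16.8% lower with GSK-J4 at 24 h, and 9.83% and 10.5% at 6 h, while 4.16% were lower with ZnSO4 at 3 h. SLC31A1, the copper importer, was higher with GSK-J4 at 24 h (log2 fold change 0.39, edgeR adjusted p = 1.8e-05), and SOD1, the copper-zinc superoxide dismutase, was lower (-0.39, edgeR adjusted p = 1.5e-07).

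The tested genes whose group means were most like the summed metallothionein level, by Pearson's r over the 13 groups on a log2 CPM scale, were SLC30A1 (r = 0.914), NEO1 (0.912), SLC30A2 (0.895), INTS6L (0.881), FTH1P3 (0.877), EFNB2 (0.866), ZNF184 (0.862), RPS6KL1 (0.861), RIMS3 (0.858) and FTH1P7 (0.858). The points share the libraries and their scaling, and no test was made. SLC30A2 reached at most 0.859 CPM with GSK-J4 and 0.272 CPM in DMSO. It passed the filter's cutoff of 1.66 CPM only through ZnSO4 libraries, which favours its place in this list. Group means of NEO1 spanned 0.58, of INTS6L 0.39 and of EFNB2 0.53 on the log2 scale, against 3.52 for SLC30A1.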

How the data were processed

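The deposited values are whole, raw read counts for each Ensembl gene in 39 libraries. HISAT2 2.1.0 and hg19 are named in the submitters' processing notes. No source used here names the counting tool, the annotation or the strand setting. The 1 h groups rest on the sample labels alone, since the protocol lists 3, 6 and 24 h.

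Counts were fitted with edgeR 4.0.16 (R 4.3.3): quasi-likelihood F-tests, all 39 libraries in 1 fit with a coefficient per group (13), scaled by TMM and filtered by filterByExpr at a minimum count of 10. The residual degrees of freedom were 26, those of the prior 34.7, and the biological coefficient of variation was 4.8%. Adjusted p-values are Benjamini-Hochberg values over the 14460 genes tested in a comparison, called under 0.05. SEs were taken as the log2 fold change divided by the root of the F statistic. Where a group held few counts, such an SE can be smaller than counting error alone. Levels are TMM-scaled CPM. Where libraries of 2 groups are said not to overlap, only the named copy is described. The share of all genes that do the same is not given, so such statements have no reference. Where a group had 0 counts, 3 counts in that group as a whole set a lower bound on the fold. Counts of the other group were taken as they stood, so their counting error is not in the bound. With 1 to 3 counts, and for some other groups with few counts, a ratio is given with an exact 95% interval. The interval covers counting error only, since reads carry no molecular identifiers. Replicates were numbered by accession order, which pairs no samples. No 2 libraries were identical. The test was tried on simulated data with known changes. These were far smaller than most folds of the copies, so the trial does not cover folds from groups at or near 0 counts.

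The 9 copies were taken by symbol (GENCODE 29 and a name table), since the table gives Ensembl identifiers. GENCODE 29 and RefSeq are of another genome build than the alignment and served for names, transcripts and promoters. All 9 copies are named, as are the other family rows with counts, MTF1, SLC30A1, up to 3 genes of the zinc and copper lists with the smallest p, and the 10 genes most like the summed copies. Copies and lists were chosen with earlier results of these data known. Alternatives were DESeq2 1.42.0, scaling by RLE factors or by library totals, testing without the filter, fitting only the groups compared, and leaving out each library. Comparisons between times within an arm were added after seeing the data.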

Additional observations from a re-analysis of the deposited data

Results flagged for a closer look

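The effect on MT1X against DMSO differed between 24 h and 6 h in both arms by a test of the difference itself. The change was -1.93 ± 0.21 on the log2 scale with GSK-J4 (SE, edgeR adjusted p = 7.2e-10) and -1.30 ± 0.22 with ZnSO4 (edgeR adjusted p = 0.00015). For MT2A the difference was not called, at -1.37 ± 0.45 with GSK-J4 (edgeR adjusted p = 0.053) and -1.37 ± 0.45 with ZnSO4 (edgeR adjusted p = 0.23), while DESeq2 called it for GSK-J4. The level of MT1X moved by -0.57 ± 0.08 with GSK-J4 and 0.06 ± 0.08 with ZnSO4 between the same times. In DMSO, whose libraries both effects share, MT1X averaged 18.3 ± 1.59 CPM at 24 h and 7.11 ± 0.736 CPM at 6 h (SD, n = 3 each).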

How the results depend on the processing

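Counts of copies called stayed within 1.5 times of the reported count in 112 cases with another setting, against 18 that did not, and in 175 with 1 library left out, against 5. For DESeq2, copies without an adjusted p were left out of both counts compared. Over all 9 copies, DESeq2 called 5 for GSK-J4 against DMSO at 3 h, where edgeR called 8. For DMSO at 1 h against T0 the count of 1 became 0 with RLE factors, library totals, DESeq2 and only the groups compared, and was 0 to 1 when leaving out a library. MT1G there was -0.079 without the first DMSO 1 h library and 4.657 without the first T0 library. For DMSO at 6 h against T0 it was 1 with no filter. For the change in GSK-J4 effect from 3 h to 6 h it was 1 with no filter, DESeq2 and only the groups compared, the copy being MT2A each time. From 6 h to 24 h it was 3 with no filter, 2 with DESeq2 and with only the groups compared, and 1 to 2 when leaving out a library. For the ZnSO4 effect over that interval it was 2 with no filter. For GSK-J4 at 24 h against 6 h it was 3 with library totals and with no filter and 4 with only the groups compared. For ZnSO4 at 6 h against 3 h DESeq2 called 3. For ZnSO4 at 24 h against 6 h DESeq2 called 0, only the groups compared 3, and leaving out a library 1 to 3. The causes were not tested.

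With library totals the summed level was 3240 CPM at 24 h and 3588 CPM at 6 h with GSK-J4, so that the order of the 2 times turned round, and 7677 CPM with ZnSO4 at 24 h. DESeq2 gave no adjusted p for MT1B in most comparisons, nor for MT1F, MT1HL1 and MT1M in GSK-J4 against DMSO at 3 h. Folds of MT1B, MT1F, MT1M and MT1HL1 against DMSO are limited by depth, since their DMSO groups hold 0 to 4 counts. No paired analysis was possible because the labels give no replicate numbers.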
